A study of Homo sapiens with 12 samples.

Results

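Across the libraries, 8 genes of simple epithelium were followed: the keratins KRT8 and KRT18, the tight junction claudins CLDN4 and CLDN7, the adhesion molecules EPCAM and CDH1 (E-cadherin), and the splicing regulators ESRP1 and ESRP2. They are 8 of the 56609 gene symbols in the files, and each matched by its symbol. They were chosen because KRT18 and ESRP1 are expressed in the TC-71 line and are lower in its resistant derivative, so the TC-71 values, the levels in TC-71 parental cells and the contrast between the lines are given as a description, with no test. The A4573 comparison was not named in that choice and was tested.

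RNA was sequenced from A4573 and TC-71, established cell lines of Ewing sarcoma, a bone and soft tissue cancer that arises from a fusion of EWSR1 with an ETS factor gene, most often FLI1. The 12 libraries fall into 4 groups of 3. A4573 parental and TC-71 parental cells received DMSO, the solvent. A4573-R and TC-71-R, derivatives resistant to YK-4-279 (a small molecule described as an inhibitor of the EWS-FLI1 fusion protein), received YK-4-279, at a labelled 650 uM and 400 uM; the unit is as the labels print it, could not be checked from the files and is in doubt. All were grown in RPMI with serum and HEPES. Resistance and exposure to the compound therefore cannot be told apart in any comparison. Each line has 1 resistant derivative, and the labels do not say whether the 3 libraries of a group came from separate cultures, so p-values measure the spread between these libraries, which may be technical.

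Keratins 8 and 18 pair to form the intermediate filaments of simple epithelium. Claudins seal neighbouring epithelial cells at tight junctions, E-cadherin joins them at adherens junctions, and EPCAM is a surface glycoprotein that binds claudin-7. ESRP1 and ESRP2 hold many transcripts in their epithelial splice form. Transcription factors of the SNAI, ZEB and TWIST families are known to repress such genes in epithelial-to-mesenchymal transition (EMT), and SNAI and ZEB proteins bind E-box sequences. Ewing sarcoma cells are not epithelial, although keratin and junction proteins are known in a share of these tumours.

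Each library held 44.0 M to 62.1 M reads on named genes. Values are deposited CPM (counts scaled to library depth), and 3 reads correspond to 0.0309 to 0.0444 CPM, depending on the library. Of the Ewing sarcoma markers, 11 of 12 averaged at least 1 CPM in every group, while CD99, a defining surface marker, was at or near 0 (at most 0.0123 CPM as a group mean). CD99 is annotated on both sex chromosomes, and how reads that match more than 1 place were counted is not stated in the sources at hand. Whether this bears on the listed value was not tested, so that value is not read as a measure of its expression. Of the keratinocyte markers, KRT5, IVL and LOR had 0 reads in all libraries. The summed keratinocyte list, carried by KRT10, TP63 and FLG, ran from 19.1 to 19.4 CPM in A4573 parental, 22.8 to 25.5 in A4573-R, 33.7 to 34.4 in TC-71 parental and 30.0 to 30.5 in TC-71-R. Blood cell markers summed to at most 1.62 CPM and endothelial markers to at most 5.03 CPM in a library. Fibroblast markers, several of which mesenchymal tumour cells also express, summed to 857 to 879 CPM in A4573 parental, 601 to 611 in A4573-R, 137 to 138 in TC-71 parental and 159 to 162 in TC-71-R. The part of these other markers in the results was not tested.

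In TC-71, 5 of the 8 genes were lower in all 3 resistant libraries than in any parental library (KRT18, KRT8, CLDN7, ESRP1 and EPCAM), against a background of 40.9% of the 14335 tested genes. CLDN4 was higher without overlap (background 40.2%), and ESRP2 and CDH1 overlapped. The same 5 genes were lower by at least 2-fold in mean CPM, as were 10.3% of tested genes; since these values chose the genes, nothing is read from either share. In A4573 the pattern was another one: ESRP1, EPCAM, CLDN7 and CDH1 were higher in all 3 resistant libraries than in any parental one (background 39.7%), ESRP2 was lower (background 35%), and the keratins were at or near 0 throughout. In bulk RNA, fewer cells of a type and less RNA per cell cannot be told apart.

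**Figure D1:**
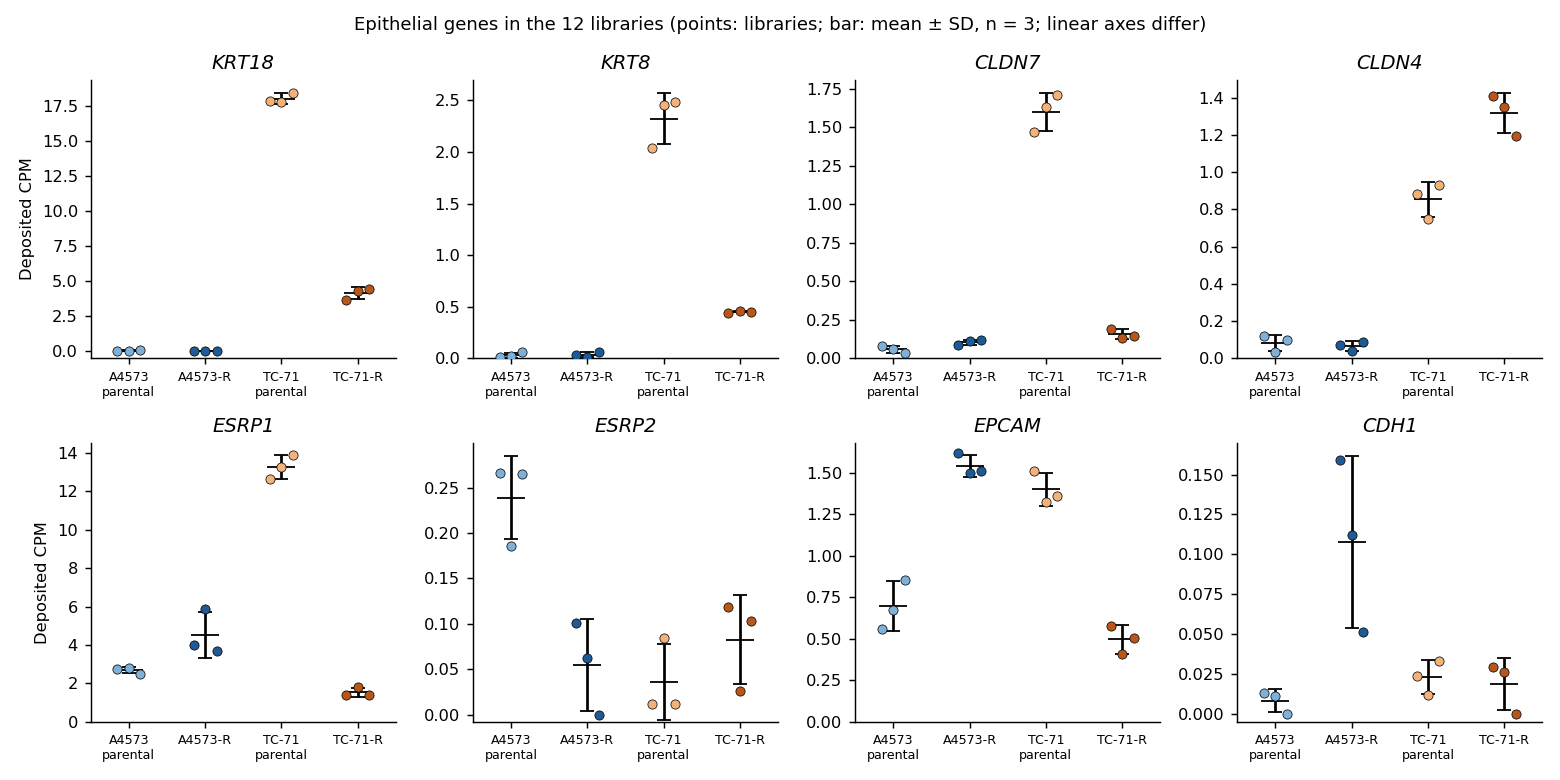
Deposited CPM (linear axes that differ between panels) of the 8 genes in each library, grouped by line and resistance; points are libraries, bars are the mean ± SD of 3. KRT18, KRT8, CLDN7 and ESRP1 are highest in TC-71 parental, while EPCAM is at 1.54 CPM in A4573-R and 1.40 CPM in TC-71 parental.

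KRT18, the type I keratin of the pair (chromosome 12, 52948871 to 52952901, plus strand, GRCh38), stood at 17.8, 17.8 and 18.5 CPM in the TC-71 parental libraries and at 3.60, 4.30 and 4.43 CPM in TC-71-R. The groups lay far apart, with 1476 to 1666 reads in each parental library and 243 to 430 in each resistant one. The means were 18.0 ± 0.370 and 4.11 ± 0.449 CPM (SD, n = 3), so TC-71-R stood at 22.8% of the parental level. In A4573 parental, 2 reads were counted in a single library and 0 in the others, and A4573-R had 0 reads in all 3 libraries, so KRT18 was not detectable there at this depth.

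KRT8, the type II partner (chromosome 12, 52897187 to 52949954, minus strand), was at 2.04, 2.45 and 2.48 CPM in TC-71 parental and at 0.444, 0.459 and 0.454 CPM in TC-71-R. Every resistant library was below every parental one, and the mean in TC-71-R was 19.5% of that in TC-71 parental. A4573 libraries held 1 to 5 reads each, in both groups; the fitted difference was 0.00 on the log2(CPM + 1) scale (limma adjusted p = 0.95).

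The ratio of the partner keratins overlapped between the TC-71 groups. In TC-71 parental, KRT18 had 7.82 ± 0.809 reads for each KRT8 read, and in TC-71-R 9.08 ± 0.873 (SD, n = 3). Per kb of exon, the TC-71 parental level of KRT18 was 8.98 CPM and that of KRT8 0.451 CPM. Exon length joins all protein-coding transcripts (2009 bases for KRT18, 5159 for KRT8). It can exceed the transcript in use, so the gap per kb is uncertain. The genes overlap at their 5′ ends: 525 exon bases are shared on opposite strands in GENCODE v29, and since none of the sources used here gives strand use, reads from that stretch cannot be assigned to one of them with certainty.

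Both keratins also have many processed pseudogenes, near-identical copies that can take reads from the parent gene. The 50 KRT8 copies summed to 2.90 CPM in A4573 parental, 4.95 in its resistant derivative, 4.77 in TC-71 parental, and 4.02 in resistant TC-71 cells, above KRT8 itself in each group. A single copy, KRT8P12, held 81.9% of those reads and did not follow KRT8: it was at 3.85 ± 0.318 CPM in parental and 3.39 ± 0.603 in resistant TC-71 cells. The 67 KRT18 copies summed to 0.868 CPM in parental and 1.00 CPM in resistant TC-71 cells. With the copies added, KRT18 in TC-71-R was at 0.270 of its parental level. The KRT8 sum rose in A4573-R by 0.61 on the log2 scale (limma adjusted p = 2.6e-06), a call that KRT8 alone did not give. In A4573, KRT8P12 went from 2.23 ± 0.280 CPM in parental to 4.17 ± 0.191 CPM in resistant cells, while KRT8 held 8 reads in each group. That call is therefore carried by the copies and shows no rise of KRT8 itself.

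CLDN7 (chromosome 17, 7259903 to 7263983, minus strand) and CLDN4 (chromosome 7, 73799542 to 73832693, plus strand) differed in direction in TC-71. CLDN7 was at 1.47, 1.63 and 1.71 CPM in TC-71 parental and at 0.193, 0.131 and 0.144 CPM in TC-71-R, a 10.3-fold lower mean and the largest decrease in ratio among the 8 genes. CLDN4 was at 0.883, 0.749 and 0.931 CPM in TC-71 parental and at 1.41, 1.35 and 1.20 CPM in TC-71-R, 1.54 times the parental mean. All 3 resistant libraries were below the parental ones for CLDN7 and above them for CLDN4. Within a library, the CLDN4 reads for each CLDN7 read went from 0.535 ± 0.0717 in TC-71 parental to 8.63 ± 1.53 in TC-71-R (SD, n = 3). Of expressed genes, ELP5 overlaps CLDN7, by 38 exon bases on the opposite strand, and was at 36.3 and 39.2 CPM in the TC-71 groups.

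In A4573 both claudins were close to the limit of detection. CLDN7 had 3 to 6 reads in each parental library and 6 to 9 in each resistant one, from 0.0580 ± 0.0218 to 0.105 ± 0.0160 CPM (SD, n = 3). That difference did not pass the test (log2 fold change 0.06 ± 0.05 SE, limma adjusted p = 0.25). CLDN4 had 3 to 9 reads in any A4573 library, its groups overlapped, and its difference of -0.02 did not pass either (limma adjusted p = 0.73).

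**Figure D2:**
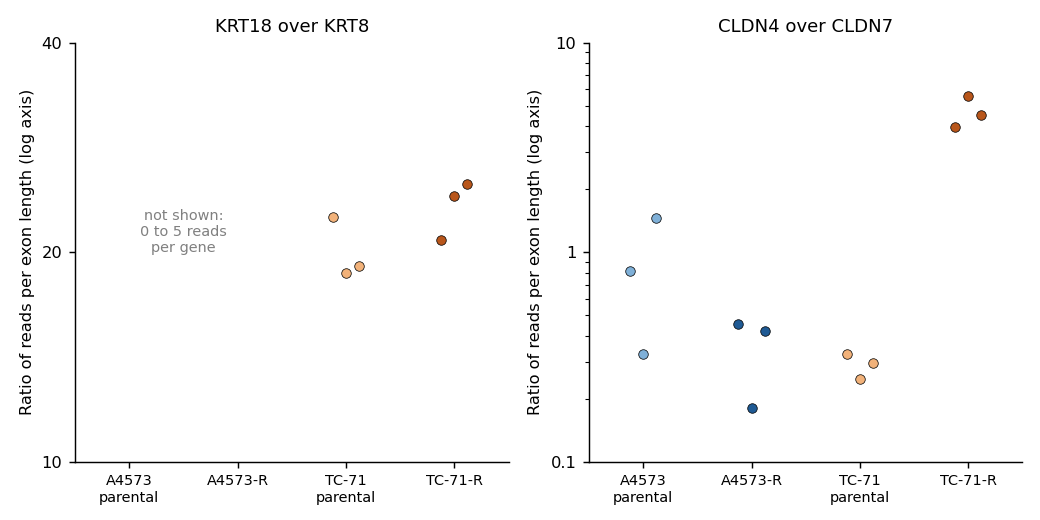
Ratio of reads per exon length (joined over all protein-coding transcripts) within each library (log axes) for the keratin pair and the claudin pair. Points are libraries. The keratin ratio overlaps between the TC-71 groups, whereas CLDN4 over CLDN7 separates TC-71-R from TC-71 parental.

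The 250 bases before annotated start sites are shown for the genes that have an entry in the RefSeq promoter table (GRCh38.p14): CLDN7 with 2 start sites, CLDN4 and KRT8. They are given because the claudins went in opposite directions in TC-71, so the choice followed those values. An E-box motif was searched. The motif searched was CACCTG and, on the other strand, CAGGTG; matches are in capitals, and no other motif was searched. In their gene's sense, 5′ to 3′, the windows lie at chr17:7262479-7262728 (minus strand) and chr17:7263214-7263463 (minus strand) for CLDN7, at chr7:73830746-73830995 (plus strand) for CLDN4, and at chr12:52926470-52926719 (minus strand) for KRT8.
CLDN7, first window: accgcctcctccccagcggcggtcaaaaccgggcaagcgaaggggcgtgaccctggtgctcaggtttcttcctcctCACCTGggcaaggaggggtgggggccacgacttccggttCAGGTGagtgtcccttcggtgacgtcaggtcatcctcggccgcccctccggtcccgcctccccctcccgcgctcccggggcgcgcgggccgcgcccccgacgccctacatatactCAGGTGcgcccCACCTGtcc
CLDN7, second window: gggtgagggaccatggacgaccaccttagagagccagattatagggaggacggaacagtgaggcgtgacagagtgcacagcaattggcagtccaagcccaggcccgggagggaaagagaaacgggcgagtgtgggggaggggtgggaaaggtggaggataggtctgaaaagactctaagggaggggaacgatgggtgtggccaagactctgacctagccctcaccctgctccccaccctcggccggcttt
CLDN4: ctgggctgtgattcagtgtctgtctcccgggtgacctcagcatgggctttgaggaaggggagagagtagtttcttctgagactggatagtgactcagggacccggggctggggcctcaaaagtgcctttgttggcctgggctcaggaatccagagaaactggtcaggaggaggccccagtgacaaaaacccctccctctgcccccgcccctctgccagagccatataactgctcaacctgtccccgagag
KRT8: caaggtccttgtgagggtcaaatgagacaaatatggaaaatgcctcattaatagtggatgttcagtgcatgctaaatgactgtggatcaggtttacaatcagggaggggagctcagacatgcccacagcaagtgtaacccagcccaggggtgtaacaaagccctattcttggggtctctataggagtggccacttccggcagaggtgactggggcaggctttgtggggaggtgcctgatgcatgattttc
The first CLDN7 window holds 4 matches, at positions -174, -135, -20 and -9 from the start site. At least 4 matches occur in 0.122% of 35116 RefSeq windows of the same length, and at least 1 in 17.5%. The windows were chosen with the values known, so nothing is read from these shares. The other 3 windows hold 0. A match is a stretch of letters and does not show binding, and its part in the changes was not tested. KRT18, ESRP1, ESRP2, EPCAM and CDH1 had no window at hand, so the motif was not searched for them.

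EPCAM (chromosome 2, 47345158 to 47387601, plus strand) was higher in A4573-R and lower in TC-71-R than in their parents. In A4573 it was at 0.558, 0.675 and 0.855 CPM in parental and at 1.62, 1.50 and 1.51 CPM in resistant cells. All resistant libraries were above all parental ones, and the mean rose 2.22-fold (log2 fold change 0.59 ± 0.07 SE on CPM + 1, limma adjusted p = 8.6e-07). On the recovered reads, which take no added 1 CPM, DESeq2 gave a log2 fold change of 1.14. In TC-71 it went the other way, from 1.51, 1.33 and 1.36 CPM in parental to 0.578, 0.406 and 0.505 CPM in resistant cells, 35.4% of the parental mean. The level in A4573-R (1.54 ± 0.0663 CPM) was near that of TC-71 parental (1.40 ± 0.0989 CPM), and the libraries of those groups overlapped.

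CDH1 (chromosome 16, 68737225 to 68835548, plus strand) was nearly silent. It had 0 to 3 reads in each library of A4573 parental and both TC-71 groups, at or below the 3-read limit. A4573-R was the exception, with 11, 9 and 4 reads, or 0.159, 0.112 and 0.0517 CPM. No A4573-R library overlapped the A4573 parental ones, which had 1, 1 and 0 reads. CDH1 failed the filter on low values; without a filter its difference passed the test (limma adjusted p = 0.0020), and no fold is given against 2 reads.

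ESRP1 (chromosome 8, 94641074 to 94707466, plus strand) was the only one of the 8 genes at 1 CPM or more in all 12 libraries. In TC-71 it was at 12.7, 13.3 and 13.9 CPM in parental and at 1.39, 1.80 and 1.40 CPM in resistant cells. The groups were separated by a wide gap, and the mean in TC-71-R was 8.67-fold lower. In A4573 the order was reversed: 2.72, 2.80 and 2.51 CPM in parental and 4.01, 5.88 and 3.67 CPM in resistant cells, with no overlap. ESRP1 rose there to 1.69 times the parental mean (log2 fold change 0.57 ± 0.11 SE, limma adjusted p = 0.00027), and the A4573-R library 2 stood above the others; without it the log2 fold change was 0.40 (limma adjusted p = 0.00026). Levels of ESRP1 thus ran in the order TC-71 parental, A4573-R, A4573 parental and TC-71-R, and no neighbouring groups in that order overlapped.

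ESRP2 (chromosome 16, 68229111 to 68238102, minus strand), which shares the splicing role of ESRP1, followed none of this. It was highest in A4573 parental, at 0.266, 0.186 and 0.265 CPM, against 0.101, 0.0625 and 0 CPM in A4573-R. The A4573 groups did not overlap, and the TC-71 groups did, with 1 to 10 reads in each TC-71 library. ESRP2 also failed the filter; without it the A4573 difference passed as a decrease (log2 fold change -0.23, limma adjusted p = 0.0013). Its exons share 149 bases with NFATC3 on the opposite strand, which was at 24.6 to 45.8 CPM as group means.

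Of the 8 genes, 6 passed the filter of at least 1 CPM in at least 3 libraries. KRT8 and CLDN7 passed through TC-71 parental alone, CLDN4 through TC-71-R alone and KRT18 through TC-71 alone, so those tests in A4573 concern genes near 0 there. Of the 6, ESRP1 and EPCAM rose in A4573-R, 0 fell and 4 did not pass. Among all tested genes 38.3% rose, 34.1% fell and 72.5% passed in either direction. The 4 that did not pass are those near 0 in A4573, so nothing is read from 2 of 6 beside these shares. Without a filter, 4 of 8 passed (ESRP1, EPCAM and CDH1 higher, ESRP2 lower; background 36.2%). The same 4 passed in edgeR on the recovered reads with at least 10 reads over the libraries (background 49.7%), a setting added after the data were seen. ESRP1, EPCAM and CLDN7 were higher in A4573-R and lower in TC-71-R without overlap in either line, as were 15.3% of tested genes.

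**Figure D3:**
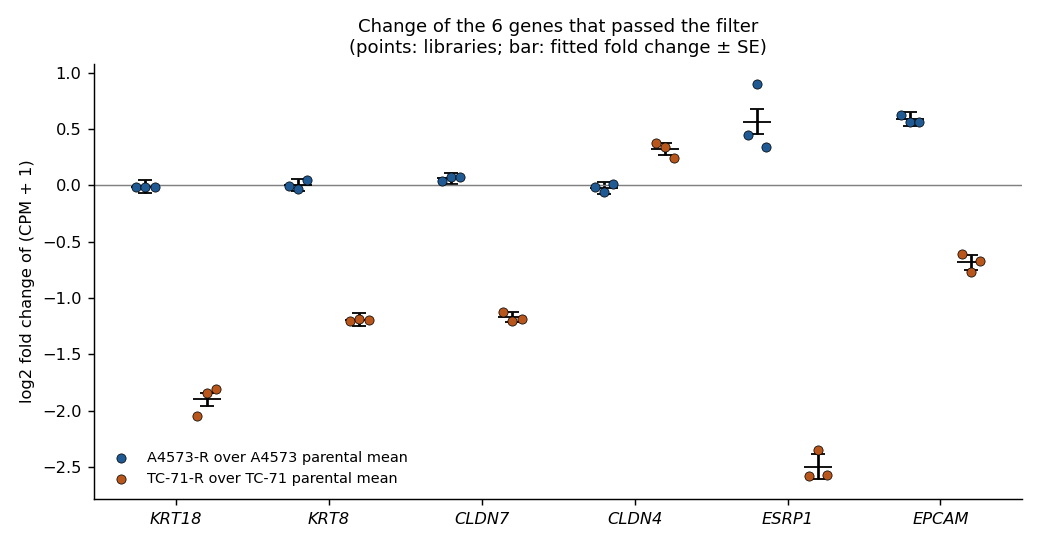
Log2 fold change of CPM + 1 for the 6 genes that passed the filter; points are single resistant libraries over the mean of their parental group, bars the fitted fold change ± SE. ESRP1 and EPCAM lie above 0 in A4573-R and below it in TC-71-R, and CLDN4 alone of the 6 lies above 0 in TC-71-R.

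Among tested genes, those with a profile most like KRT18 over the 12 libraries were CTSZ, a lysosomal cathepsin (Pearson r = 0.9994 on log2(CPM + 1)), WDFY3-AS2, DOCK3 and KCNH5, each near 0.999, and 1 further gene. These likenesses rest on the difference between the lines and on the lower values in TC-71-R, which chose the genes. CTSZ was at 51.7 CPM in TC-71 parental, 8.27 in TC-71-R and about 0.13 in both A4573 groups. For ESRP1 the nearest was CEBPG, a basic leucine zipper transcription factor of the stress response (r = 0.994), at 37.7 CPM in A4573 parental, 58.4 in its resistant derivative, 139 in TC-71 parental, and 24.3 in resistant TC-71 cells. DNAH10 (r = 0.993), GKAP1 (0.991), LINC01686 (0.987) and BAMBI (0.987) followed. Among the tested genes of the 8, which leave out ESRP2 and CDH1, KRT18 was most like KRT8 (r = 0.961), and ESRP1 was most like CLDN7 (r = 0.876). CLDN7 was as like KRT18 (r = 0.876). All these correlations share libraries and depth and are descriptions.

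Genes beside these on the chromosome were read for comparison. Among the 3 nearest tested genes on each side outside the 8, up to 933 kb away, log2 fold changes in TC-71-R ran from -1.20 to 0.08 around KRT18, from -0.77 to 0.08 around ESRP1, from -0.36 to 1.32 around CLDN7 and from -0.14 to 0.88 around EPCAM. The fitted values for those 4 genes were -1.90, -2.50, -1.17 and -0.68; since the TC-71 values chose the genes, nothing is read from how they compare with their neighbours.

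Other epithelial and related genes were read from 13 lists of 180 genes, of which 111 were tested. In A4573-R 47 rose, 34 fell and 30 did not pass, and in TC-71-R 40 rose, 53 fell and 18 did not pass. The share passing was 73.0% in A4573, beside 72.5% of all tested genes, and 83.8% in TC-71, beside 78.5% (38.8% higher and 39.6% lower). Median log2 fold changes were 0.05 and -0.08, against 0.02 and -0.00 over all tested genes. Of the 111, 26 rose in A4573-R and fell in TC-71-R (23.4%, background 14.3%), and 12 did the reverse (10.8%, background 11.9%). Together these are 38 of the 111, beside 26.2% of all tested genes. The lists were chosen with earlier results of these data known, so nothing is read from these shares. The difference between the lines passed the test for 78.1% of all tested genes, so a tested difference is common in these data.

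**Figure D4:**
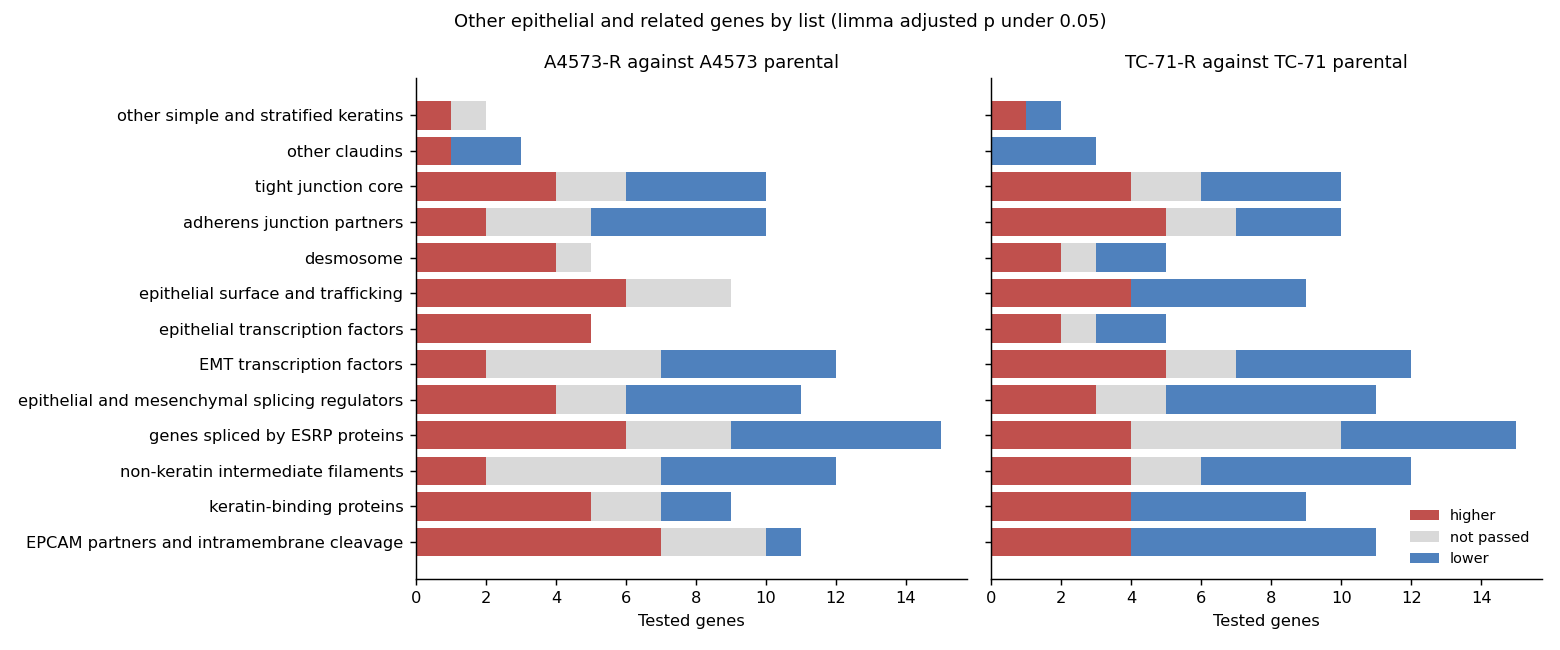
Number of tested genes in each of the 13 lists that were higher (red), lower (blue) or did not pass (grey) in each line at a limma adjusted p under 0.05. In A4573-R no gene of the desmosome, epithelial surface and epithelial transcription factor lists was lower, while each has lower genes in TC-71-R.

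Surface and trafficking genes of epithelium were read first. Of 9 tested, 6 rose and 0 fell in A4573-R, and 4 rose and 5 fell in TC-71-R. MAL2, a protein of apical membrane traffic, rose from 0.538 ± 0.0293 to 5.56 ± 1.47 CPM in A4573-R (log2 fold change 2.07) and fell from 4.85 ± 0.0740 to 0.0221 ± 0.0265 CPM in TC-71-R (-2.52). The difference between the lines was -4.58 (limma adjusted p = 1.2e-12). SPINT1, an inhibitor of matriptase, rose from 8.37 to 25.3 CPM in A4573-R (1.49) and by 0.17 in TC-71-R. LAMB3, a chain of the epithelial laminin-332, rose in A4573-R (0.36) and fell in TC-71-R (-0.48). Its partner LAMA3 fell in TC-71-R (-0.79).

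Among desmosome genes, 4 of 5 tested rose and 0 fell in A4573-R, while 2 rose and 2 fell in TC-71-R. PKP2, a desmosomal plaque protein, rose from 19.2 ± 0.570 to 54.5 ± 2.80 CPM in A4573-R and fell from 41.1 ± 0.809 to 16.5 ± 0.906 CPM in TC-71-R (difference -2.72, limma adjusted p = 3.3e-14). DSP, desmoplakin, which anchors keratin filaments, fell in TC-71-R (-0.46) and rose in A4573-R (0.16), a call lost under quantile normalization (limma adjusted p = 0.061). PKP1 and plakoglobin (JUP) rose in both lines; PKP1 reached 1428 CPM in TC-71-R from 979 CPM in the parent. 

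Tight junction genes split. Of the other claudins, 3 were tested: CLDN1 fell from 81.1 ± 2.37 to 23.1 ± 2.18 CPM in TC-71-R (-1.77) and rose by 0.28 in A4573-R, while CLDN12 and CLDN15 fell in both lines. The tight junction core counted 4 higher, 4 lower and 2 not passed in each line. The scaffold TJP1 (ZO-1) fell in both, from 26.9 to 13.3 CPM in A4573-R and from 12.5 to 1.45 CPM in TC-71-R (-2.46). F11R, the junctional adhesion molecule A, rose in A4573-R (1.13). Occludin (OCLN) fell in both lines (-0.23 and -0.46).

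Among adherens junction partners of E-cadherin, the catenins CTNNA1, CTNNB1 and CTNND1 stood above 100 CPM in every group, while CDH1 was near 0. In A4573-R 2 of 10 rose and 5 fell, and in TC-71-R 5 rose and 3 fell. CTNNA1, alpha-catenin, fell from 243 to 107 CPM in TC-71-R (-1.18). P-cadherin (CDH3) rose there from 1.00 to 3.25 CPM (1.09), and vinculin (VCL) fell in A4573-R (-0.73) and rose in TC-71-R (0.93). Beta-catenin (CTNNB1) fell in A4573-R from 328 to 232 CPM (-0.50).

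Of 18 other keratins, 2 passed the filter. KRT10 rose in A4573-R (0.28) and fell in TC-71-R (-0.56), and KRT17 rose in TC-71-R by 0.17 (limma adjusted p = 0.044), a call lost when any 1 TC-71 parental library, TC-71-R library 2 or 3 or A4573-R library 3 was left out. KRT7 had 0 reads, and KRT19, another type I keratin of simple epithelium, had 19 reads over all 12 libraries. Among 9 tested keratin-binding proteins, 5 rose and 2 fell in A4573-R, and 4 rose and 5 fell in TC-71-R. Epiplakin (EPPK1), which binds keratin bundles, rose from 0.145 to 2.06 CPM in A4573-R (1.42) and fell from 0.724 to 0.0809 CPM in TC-71-R (-0.67).

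Other intermediate filament genes were mixed. Vimentin (VIM), the filament protein of mesenchymal cells, rose from 255 ± 0.900 to 619 ± 16.0 CPM in TC-71-R (log2 fold change 1.28) and from 262 to 298 CPM in A4573-R (0.19). Nestin (NES) rose in A4573-R (0.79) and fell in TC-71-R (-1.51). Synemin (SYNM), neurofilament light (NEFL) and peripherin (PRPH) fell in both lines, by 1.68, 1.50 and 0.95 in TC-71-R. Of the 12 tested, 2 rose and 5 fell in A4573-R, and 4 rose and 6 fell in TC-71-R.

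Transcription factors that act on these genes were read next. Of 5 tested epithelial factors, 5 rose in A4573-R, and in TC-71-R 2 rose, 2 fell and 1 did not pass. KLF5 rose in A4573-R from 2.16 to 3.66 CPM (0.56) and fell in TC-71-R from 2.50 to 1.29 CPM (-0.61). GRHL1 did likewise (0.18 and -0.77), though its A4573 call was lost under quantile normalization (limma adjusted p = 0.18) and without A4573 parental library 1 or A4573-R library 3. TFAP2A rose in both lines (1.09 and 1.06), as did TP63 (0.48 and 0.66). GRHL2, an activator of the junction genes, had 4 reads over all libraries. OVOL1, OVOL2 and GRHL3 had 32, 89 and 343 reads and failed the filter; OVOL2 was at 0 in A4573 parental and 0.130 CPM in A4573-R.

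Of 12 tested EMT transcription factors, 2 rose, 5 fell and 5 did not pass in A4573-R, and 5 rose, 5 fell and 2 did not pass in TC-71-R. ZEB1, which is known to repress CDH1 and ESRP1, rose from 5.49 to 11.6 CPM in A4573-R (0.96) and fell from 26.5 to 16.8 CPM in TC-71-R (-0.63). ZEB2 rose by 0.30 in both. SNAI1 fell in both lines (-0.52 and -0.59), while SNAI2 (Slug) fell in A4573-R (-0.29) and rose from 26.2 to 49.3 CPM in TC-71-R (0.89).

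PRRX1, a mesenchymal homeobox factor, also fell in A4573-R (-0.57) and rose from 1.63 to 5.52 CPM in TC-71-R (1.31). FOXC1 fell in both (-1.18 and -1.99), TWIST2 fell in A4573-R (-0.90) and had 0 reads in TC-71, and TWIST1 and KLF8 fell in TC-71-R (-0.80 and -1.68). FOXC2 and TCF4 rose in TC-71-R (0.48 and 0.53). GSC passed in neither line. TWIST1, TCF4, FOXC2, KLF8 and GSC were the 5 that did not pass in A4573.

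**Figure D5:**
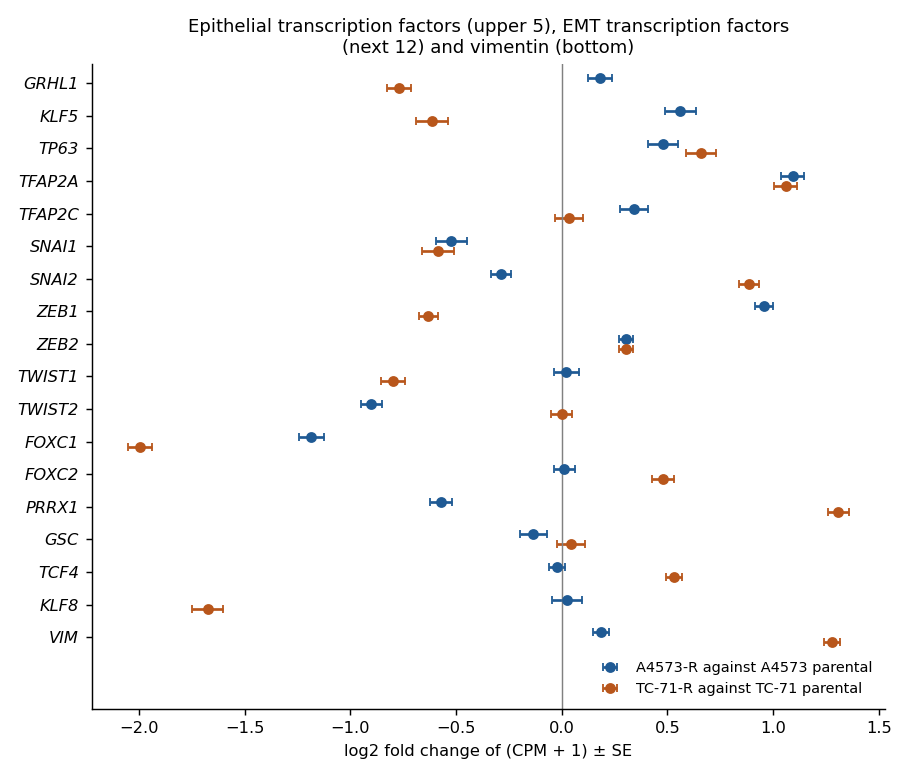
Fitted log2 fold change of CPM + 1 ± SE for 5 epithelial and 12 EMT transcription factors and vimentin in each line. ZEB1 lies above 0 in A4573-R and below it in TC-71-R; SNAI2 and PRRX1 lie on the opposite sides.

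Genes whose transcripts ESRP proteins are known to splice were themselves mixed, and gene-level values do not show splice forms. Of 15 tested, 6 rose and 6 fell in A4573-R, and 4 rose and 5 fell in TC-71-R. FGFR2, the classic ESRP target, was at 6.87 and 8.50 CPM in the A4573 groups and at or near 0 in TC-71. FGFR3 rose in both lines, from 25.4 to 70.1 CPM in TC-71-R (1.43). CD44 fell in A4573-R from 7.07 to 2.71 CPM (-1.12) and was at or near 0 in TC-71. Of 11 other splicing regulators of epithelial or mesenchymal programmes, 4 rose and 5 fell in A4573-R and 3 rose and 6 fell in TC-71-R; RBM47, an epithelial regulator, rose in TC-71-R from 0.932 to 1.61 CPM (0.43), and RBM24 rose in A4573-R (0.82) and fell in TC-71-R (-0.29).

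Partners and proteases of EPCAM were measured at 11 of 11 genes. In A4573-R 7 rose and 1 fell, and in TC-71-R 4 rose and 7 fell. The sheddases ADAM10 and ADAM17 fell in TC-71-R (-0.86 and -0.73), and the gamma-secretase subunits PSEN2, NCSTN and PSENEN fell there too, with APH1A rising (0.53). PSENEN rose in A4573-R (0.73). The tetraspanin CD9, which binds EPCAM, rose in both lines, from 0.845 to 5.29 CPM in TC-71-R (1.77), and LEF1, a Wnt factor that joins the cleaved EPCAM tail, rose in A4573-R (0.95) and fell in TC-71-R (-0.28).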

How the data were processed

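RNA was extracted with RNeasy columns, TruSeq libraries were read as paired ends of 100 bases, and the authors processed them with Trimmomatic, STAR 2.4, HTSeq and edgeR on GRCh38, per the submitters' processing notes; strand use and annotation are not given in the sources used here. The deposited values are a signal in CPM on scaled library sizes, with 1 column per library. Whole reads were recovered for 100% of values (tolerance 0.001 reads). The 5 entries that name no gene, 30.6% to 42.0% of reads, were left out of the tests; the deposited CPM count them in the library size, and an alternative over named genes does not. No pair of libraries agreed within sampling noise (chi-square per degree of freedom 2.31 to 35.6 within groups).

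The filter asked for 1 CPM or more in 3 or more of 12 libraries; the 14335 of 56609 symbols that passed were tested with limma 3.58.1 (trend) on log2(CPM + 1), with 4 group means and Benjamini-Hochberg adjustment over all of them at 0.05; this scale understates changes of low genes, and fold changes in the text are on it unless a ratio of mean CPM is named. Alternatives were a pseudocount of 0.25, no filter, a mean of at least 5 CPM, quantile normalization, CPM over named genes with TMM, edgeR 4.0.16 quasi-likelihood and DESeq2 1.42.0 on recovered reads, the 2 groups compared alone, a replicate block, leaving out each library, and keratins summed with their pseudogenes. The fits were tested on simulated data.

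Coordinates, overlaps and exon lengths (over protein-coding transcripts) come from GENCODE v29 (GRCh38) and promoter windows from RefSeq (GRCh38.p14, without chromosome 8). The genes and lists were chosen with earlier results of these data known. Named were the 8 genes, up to 4 passing genes of largest change per list and line with at least 1 CPM in the higher group, all tested EMT factors, GRHL and OVOL genes, VIM, the pseudogenes, and the 5 genes most correlated with KRT18 and with ESRP1. Genes outside that rule (KRT7, KRT19, FGFR2, PSEN2, NCSTN, APH1A and the overlapping genes) were named after their values were seen. Named genes without a value in the text are counted in their lists, and 2 genes are not reported here.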

Additional observations from a re-analysis of the deposited data

Results flagged for a closer look

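Of the 8 epithelial genes, 3 went in opposite directions in the lines. For these, every resistant library was above all parental libraries in A4573 and below them in TC-71, as for 15.3% of tested genes. The log2 ratio of mean CPM in A4573-R over A4573 parental was 0.76 for ESRP1, 1.15 for EPCAM and 0.86 for CLDN7, against -3.12, -1.50 and -3.36 in TC-71. This difference between the lines was not tested, because the TC-71 values chose the genes. CLDN7 rests on 14 and 24 reads in the A4573 groups, and its A4573 difference did not pass (limma adjusted p = 0.25).

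For 35 other named genes, both changes and the change in TC-71-R minus that in A4573-R passed limma's test with opposite signs in the lines. The differences, as log2(CPM + 1), are given for the 10 that changed by at least 0.5 in each line. Among those 10, the epithelial genes higher in A4573-R and lower in TC-71-R were MAL2 (-4.58), PKP2 (-2.72), EPPK1 (-2.09) and KLF5 (-1.18), and NES (-2.30) and ZEB1 (-1.59) had the same signs. The reverse held for the junction gene VCL (1.66), for PRRX1 (1.88), for the fibroblast marker LUM, lumican (2.66), and for the Ewing sarcoma marker LIPI (2.14). Among these, KLF5 had the highest limma adjusted p (6.5e-08). In both lines a change of opposite sign passed for 26.2% of all tested genes. The naming rule took passing genes with the largest changes, so the 35 cannot be set against that share.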

How the results depend on the processing

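The count of the 8 genes that passed in A4573 was 2 and stayed at 2 when any 1 library was left out, and with the replicate block. It was 4 with no filter and 4 in edgeR with at least 10 reads over the libraries (chosen after seeing the data), where CDH1 and ESRP2 could be tested. It was 1 with a mean of at least 5 CPM, where 2 could be tested. With the keratins summed with their pseudogenes it was 3, and the added call was the KRT8 sum, carried by its pseudogenes. KRT18 in TC-71-R was at 0.228 of its parental level (0.219 to 0.242 with 1 library left out) and at 0.270 with its pseudogenes added. ESRP1 was at 0.115 (0.105 to 0.120 with 1 library left out).

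Differences near 0 in A4573 changed sign. KRT8 was at -0.021 under quantile normalization and TCF4 at 0.0086, and TWIST1 was at -0.0013 with CPM over named genes and TMM. With 1 library left out, KRT8 ran from -0.016 to 0.024, CLDN4 from -0.055 to 0.0018, TCF4 from -0.051 to 0.017 and TWIST1 from -0.047 to 0.077. The cause was not tested. Of 131 results for single genes, all but 8 kept direction and side of the threshold in all alternatives run; 9 values reversed, 11 lost the call and 5 gained it.

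Same-numbered libraries did not deviate together (r from -0.10 to 0.016 over 6 pairs), so the replicate block is only an alternative. With the block, 10279 genes passed in A4573 and 11151 in TC-71, against 10389 and 11248. On the recovered reads, edgeR called 10527 and 11410 genes and DESeq2 10343 and 11253, and each called the same number of the 8 genes, 2. No scaling moved the median of all genes by over 0.1 on the log2 scale. Depth limits CDH1, ESRP2, the claudins and the keratins in A4573, each at or below 22 reads per library.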
